A study of Mus musculus with 9 samples.

Results

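The genes described here make cholesterol, sense it and move it through the cell, with 3 enzymes of fatty acid synthesis that answer to the same transcription factors. They are 32 genes, named one by one by symbol, of 24647 genes with a symbol on the arrays. All 32 were found, 1 of them (Sc4mol) under the older symbol of the gene now called Msmo1. Where a symbol stood on more than 1 transcript cluster (the array's unit for a transcribed locus), the cluster with the highest mean over the 9 arrays was taken. This choice arose for Scap and Npc1. The genes are 18 enzymes of cholesterol synthesis, 5 regulators, 6 genes of sterol movement, uptake control and efflux, and 3 fatty acid enzymes.

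RNA was taken from mouse embryonic fibroblasts, connective tissue cells of the mouse embryo, grown in 10% serum and harvested while still dividing. The labels name 3 groups of 3 dishes (vector control, human APE1, mouse Ape1), each of them 1 cell line, so that group and line cannot be told apart. By their labels and the design text, all the cells are male, from mice isogenic to C56BL/6 (spelled so in the labels), with the genotype mApe1-/- and a human APE1 transgene (hAPE1TG), so the vector control cells also carry that transgene and their Ape1 level is described as extremely low. What drives the transgene and how each line was derived were not found in the labels, and the Ape1 level was not checked here. Ape1 is a DNA repair endonuclease that also acts on the redox state of transcription factors. The study asked how genes grouped by cellular activity respond to each of the 2 proteins.

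Cells make cholesterol from acetyl-CoA, first through mevalonate, then through isoprenoids to squalene, and last through a string of sterols. The membrane-bound SREBP factors switch these genes on: when sterol is scarce, the escort protein SCAP carries SREBP to the Golgi, where it is cut and released, and when sterol is plentiful, INSIG proteins hold SCAP and SREBP in the endoplasmic reticulum. Liver X receptors act on the other side: they sense oxysterols and switch on efflux pumps such as ABCA1 and the ligase MYLIP, which removes lipoprotein receptors.

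Of the 32 genes, 24 had at least 1 window in RefSeq's table of promoters (GRCm38.p6, 250 bases before to 50 after the start of transcription). Fdps, Fdft1, Sqle, Stard4, Npc1, Abcg1, Scd1 and Scd2 had none. The 6 windows below belong to genes on which the results turn: Hmgcs1 and Srebf2, which moved in opposite directions in both lines, Idi1, which differed between them, Sc4mol, which rose in human APE1, Sc5d, which rose in mouse Ape1, and Abca1, which fell in both. Capitals mark the letters TCACNCCA, the core of a sterol regulatory element, with the ninth letter of its longer form TCACNCCAC where that is present, and CCAAT, the box bound by NF-Y, a partner of SREBP, each on either strand.
Hmgcs1 (chr13:119690101-119690400, plus strand): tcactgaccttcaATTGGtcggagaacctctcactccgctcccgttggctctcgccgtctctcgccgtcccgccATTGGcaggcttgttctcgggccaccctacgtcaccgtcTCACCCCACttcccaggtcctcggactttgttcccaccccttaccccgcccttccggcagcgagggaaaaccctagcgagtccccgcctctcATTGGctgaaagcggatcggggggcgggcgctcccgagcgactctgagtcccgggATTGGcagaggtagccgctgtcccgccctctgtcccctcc
Srebf2 (chr15:82147019-82147318, plus strand): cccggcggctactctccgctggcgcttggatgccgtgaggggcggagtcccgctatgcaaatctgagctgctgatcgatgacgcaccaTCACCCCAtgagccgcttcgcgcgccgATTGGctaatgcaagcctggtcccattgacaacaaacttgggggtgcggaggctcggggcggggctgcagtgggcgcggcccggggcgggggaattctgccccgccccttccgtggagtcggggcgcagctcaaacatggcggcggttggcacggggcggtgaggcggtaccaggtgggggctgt
Idi1 (chr13:8885356-8885655, plus strand): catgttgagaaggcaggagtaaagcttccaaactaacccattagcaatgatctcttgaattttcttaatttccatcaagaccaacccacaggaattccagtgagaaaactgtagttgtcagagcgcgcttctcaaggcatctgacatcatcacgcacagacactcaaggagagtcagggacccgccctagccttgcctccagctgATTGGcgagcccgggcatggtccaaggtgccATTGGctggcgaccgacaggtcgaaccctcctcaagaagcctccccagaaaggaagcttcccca
Sc4mol (chr8:64733529-64733828, minus strand): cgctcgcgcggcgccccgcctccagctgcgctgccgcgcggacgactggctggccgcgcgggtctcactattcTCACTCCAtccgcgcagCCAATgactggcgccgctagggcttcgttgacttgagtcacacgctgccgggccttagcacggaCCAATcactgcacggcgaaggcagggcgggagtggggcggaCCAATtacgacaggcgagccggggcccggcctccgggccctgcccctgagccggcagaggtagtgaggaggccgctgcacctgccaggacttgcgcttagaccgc
Sc5d (chr9:42264251-42264550, minus strand): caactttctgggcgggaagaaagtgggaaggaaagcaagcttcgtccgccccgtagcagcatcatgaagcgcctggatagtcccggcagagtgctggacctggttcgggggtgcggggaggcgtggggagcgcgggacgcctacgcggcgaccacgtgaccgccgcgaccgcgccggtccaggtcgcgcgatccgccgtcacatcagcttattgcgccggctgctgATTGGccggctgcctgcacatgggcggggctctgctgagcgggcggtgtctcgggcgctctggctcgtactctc
Abca1 (chr4:53159846-53160145, minus strand): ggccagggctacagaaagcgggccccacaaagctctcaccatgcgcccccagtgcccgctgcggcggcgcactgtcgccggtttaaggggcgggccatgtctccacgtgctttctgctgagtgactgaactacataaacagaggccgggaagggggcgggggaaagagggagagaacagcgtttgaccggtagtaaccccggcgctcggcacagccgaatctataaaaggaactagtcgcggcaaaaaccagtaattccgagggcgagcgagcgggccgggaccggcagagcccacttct

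The 9-letter form TCACNCCAC stood only in the Hmgcs1 window, at bases 114 to 122, among the 24 genes. By window this is 3.12% of 32 windows, against 1.24% of all 32851 windows of this length and 1.14% of windows of expressed genes. The shorter TCACNCCA, searched after the longer form had been counted and contained in it, stood in the windows of Hmgcs1, Srebf2 and Sc4mol, 3 of 24 genes. By window this is 9.38%, against 4.36% of all windows and 3.7% of windows of expressed genes. CCAAT stood in 20 of 24 genes. Counted by window, since 5 of these genes have several, it stood in 65.6% of 32 windows against 37.4% of all windows and 38.1% of windows of expressed genes. GGGCGG, the box bound by Sp1, stood in 78.1% of the windows of these genes, 35.7% of all windows and 62.4% of those of expressed genes. CACGTG, the E-box, stood in 21.9%, 7.15% and 9.95%. A strict spelling of the DR4 repeat, the element bound by liver X receptors, was matched in none of the windows of these genes and in 0.0883% of all. Repeats that depart from that spelling were not counted. The Abca1 window holds such a stretch on its opposite strand, which departs from it by a single letter. The lack of a strict match therefore does not show that a window lacks the element. All these counts are matches of letters and were not tested.

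Array medians lay between 5.64 and 5.75 on the log2 scale, and all 32 genes had means above 5.69, the median over transcript clusters. Genes above that value are called expressed below. Of 12 fibroblast markers, 10, 9 and 10 lay above the array median in all 3 dishes of vector control, human APE1 and mouse Ape1, while Lum lay at 3.03 to 3.09 in group means. Their mean level was 9.31 to 9.37 in vector control dishes, 8.48 to 8.59 in human APE1 and 8.71 to 8.78 in mouse Ape1. The fibroblast markers did not move together. Against vector control Dcn differed by −3.06 in human APE1 and −3.29 in mouse Ape1, and Pdgfra by −1.85 and −1.19. Col1a2 differed by −0.68 and 0.52, and Vim by 0.19 and 0.34. The part of these markers in the results was not tested. Leucocyte Ptprc (3.40 to 3.57), adipocyte Adipoq (3.75 to 3.81), hepatocyte Alb (4.15 to 4.41) and epithelial Epcam (4.35 to 4.43) were dim in all groups. Other members of these lists lay above the array median in all 3 dishes: Cd68 and Cd14 (macrophage), Plin1 and Cfd (adipocyte), Apoa1 and Apoa2 (hepatocyte) and Krt8 (epithelial) in every group, Pparg (adipocyte) in vector control and human APE1, and Cldn4 (epithelial) in vector control and mouse Ape1. Median levels of expressed genes also differed by chromosome, from −0.31 (chromosome X) to 0.11 (chromosome 10) in human APE1 minus vector control and from −0.23 (chromosome 14) to 0.40 (chromosome 12) in mouse Ape1 minus vector control. Whether these shifts have a part in the results was not tested. They are given below beside some of the genes only, so a gene named without a shift may also lie on a shifted chromosome.

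With all 3 groups in 1 moderated F-test (limma, adjusted p under 0.05 after Benjamini-Hochberg adjustment over all transcript clusters), 17 of the 32 genes (53.1%) differed, against 26.1% of all genes and 44.1% of expressed genes. In the 3 comparisons between groups, 20 genes passed at least once and 12 never did. Rose and fell are used below only of genes that passed this threshold in the comparison named, and p-values measure the spread between 3 dishes of 1 line each. Each difference is one of group means, in log2 units. In bulk RNA, fewer cells of a type and less RNA per cell cannot be told apart.

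**Figure D1:**
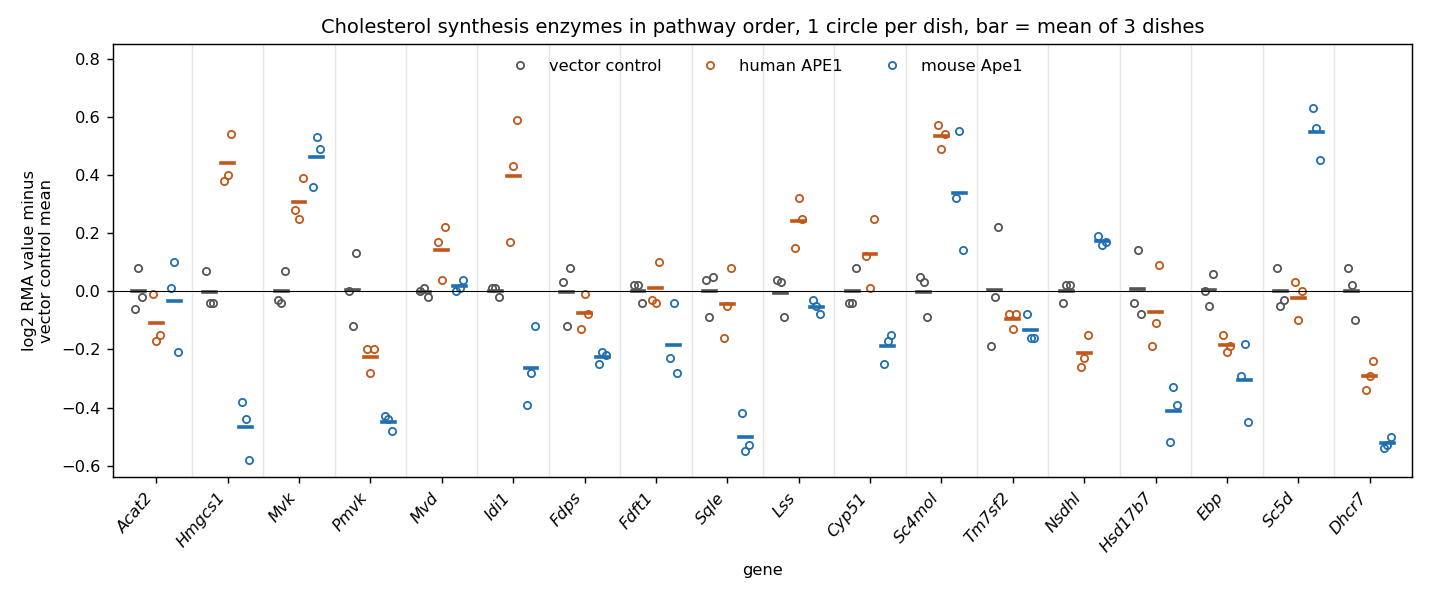
The 18 cholesterol synthesis enzymes in pathway order: each circle is 1 dish, on the log2 scale with the mean of the 3 vector control dishes subtracted, and each bar is the mean of 3 dishes. Hmgcs1 and Idi1 lie above vector control in human APE1 and below it in mouse Ape1, while Sc5d lies above the other groups in mouse Ape1 alone.

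The first steps of the pathway, to mevalonate and its phosphates, held 1 gene that moved in opposite directions in the lines and others that did not. Hmgcs1, the cytosolic synthase that makes HMG-CoA, read 9.36, 9.25 and 9.25 in the vector control dishes, 9.67, 9.69 and 9.83 in human APE1 and 8.91, 8.85 and 8.71 in mouse Ape1. No dish of one group overlapped with a dish of another: human APE1 was highest and mouse Ape1 lowest. Hmgcs1 rose by 0.44 (SE 0.077, limma adjusted p = 0.00821) in human APE1 against vector control and fell by 0.46 (adjusted p = 0.00496) in mouse Ape1. Between the lines it stood 1.87-fold higher in human APE1 (0.90, adjusted p = 0.000219). For Hmgcs1 the authors' deposited table lists human APE1 over mouse Ape1 at a ratio of 1.90 (p = 3.47e-06). The median of expressed genes on chromosome 13, where it lies, differed by 0.01, −0.14 and 0.15 in the 3 comparisons, and with chromosome medians subtracted the differences of Hmgcs1 were 0.43, −0.32 and 0.75.

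Mvk, mevalonate kinase, rose in both lines. It read 7.89, 7.88 and 7.99 in vector control, 8.20, 8.17 and 8.31 in human APE1 and 8.28, 8.45 and 8.41 in mouse Ape1. All 6 dishes of the APE1 lines lay above the 3 of vector control, with differences of 0.31 (adjusted p = 0.0263) in human APE1 and 0.46 (adjusted p = 0.00335) in mouse Ape1, and the lines overlapped with each other. The first of these calls was lost without vector control replicate 1 or 2 and without any of the human APE1 dishes (adjusted p up to 0.169 over all alternatives). Pmvk, the kinase of the next step, went the other way: it read 8.89, 8.77 and 9.02 in vector control, 8.69, 8.61 and 8.69 in human APE1 and 8.46, 8.45 and 8.41 in mouse Ape1. It fell by 0.45 in mouse Ape1 (SE 0.074, adjusted p = 0.00458), while the difference in human APE1, −0.23, did not pass (adjusted p = 0.0925) and equalled the shift of chromosome 3 (−0.23). Acat2, the thiolase at the head of the pathway, ranged from 8.65 to 8.96 over the 9 dishes and Mvd, which makes isopentenyl diphosphate, from 8.52 to 8.76, and neither passed in any comparison.

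From isopentenyl diphosphate to squalene epoxide, mouse Ape1 had the lowest group mean for all 4 enzymes. Idi1, the isomerase that makes the second isoprenoid building block, read 8.28, 8.28 and 8.25 in vector control, 8.44, 8.70 and 8.86 in human APE1 and 7.88, 7.99 and 8.15 in mouse Ape1. The 3 groups did not overlap, but the dishes of both APE1 lines were spread widely. Human APE1 stood 1.58-fold above mouse Ape1 (0.66, SE 0.11, adjusted p = 0.0062), while neither difference from vector control passed (0.40, adjusted p = 0.0590, and −0.26, adjusted p = 0.168). Without human APE1 replicate 1 the first of these was 0.51 and passed (adjusted p = 0.0210). It also passed under 5 other alternatives (adjusted p = 0.0192 to 0.0467), among them quantile normalization and the authors' deposited comparison.

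Sqle, squalene epoxidase, a rate-setting enzyme of the sterol branch, read 9.32, 9.19 and 9.33 in vector control, 9.12, 9.23 and 9.36 in human APE1 and 8.86, 8.73 and 8.75 in mouse Ape1. Mouse Ape1 lay below both other groups, which overlapped with each other. Sqle fell 1.41-fold in mouse Ape1 against vector control (−0.50, SE 0.079, adjusted p = 0.00412) and was higher in human APE1 than in mouse Ape1 by 0.45 (adjusted p = 0.00712). It differed by −0.04 (adjusted p = 0.800) between human APE1 and vector control. In the authors' deposited comparison the fall and the difference between the lines were both lost (adjusted p = 0.0786 and 0.0955). Chromosome 15, where Sqle lies, shifted by −0.22 in mouse Ape1, and the difference beyond that shift was −0.28. Fdps, which makes farnesyl diphosphate, and Fdft1, squalene synthase, had lower group means in mouse Ape1 than in vector control. The differences, −0.22 and −0.18, did not pass (adjusted p = 0.0612 and 0.167), though that of Fdps did under some alternatives (adjusted p = 0.0239 to 0.0483). Beyond the shifts of chromosome 3 (−0.12) and chromosome 14 (−0.23) the differences of Fdps and Fdft1 were −0.10 and 0.05.

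Lanosterol synthase and the enzymes after it, 9 in number, differed from gene to gene. Lss, which closes the sterol rings, read 9.39, 9.38 and 9.26 in vector control, 9.50, 9.67 and 9.60 in human APE1 and 9.32, 9.30 and 9.27 in mouse Ape1. Against vector control its difference of 0.24 in human APE1 did not pass (adjusted p = 0.0521), though it did under some alternatives (adjusted p = 0.0184 to 0.0499). With chromosome medians subtracted that difference was 0.14 (adjusted p = 0.272). Lss was higher in human APE1 than in mouse Ape1 by 0.29 (adjusted p = 0.0238), and the difference beyond the shift of chromosome 10 was 0.05. Cyp51, the demethylase that acts on lanosterol, read 8.48, 8.48 and 8.60 in vector control, 8.64, 8.53 and 8.77 in human APE1 and 8.27, 8.35 and 8.37 in mouse Ape1. Human APE1 lay above mouse Ape1 in all dishes (0.32, SE 0.075, adjusted p = 0.0295). The median of chromosome 5 shifted the opposite way (−0.23), so the difference beyond it was 0.55. Both of these calls were lost without any of the mouse Ape1 dishes, that of Lss without human APE1 replicate 2 or 3 and that of Cyp51 without human APE1 replicate 1 or 3.

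Sc4mol, the oxidase that starts the removal of further methyl groups, read 7.98, 7.96 and 7.84 in vector control, 8.50, 8.42 and 8.47 in human APE1 and 8.25, 8.48 and 8.07 in mouse Ape1. Both lines lay above vector control. The rise of 0.54 in human APE1 was 1.45-fold (SE 0.10, adjusted p = 0.0121), and the difference of 0.34 in mouse Ape1, whose dishes were spread more widely (SD 0.20 against 0.044), did not pass (adjusted p = 0.0588). That difference passed under 4 alternatives (adjusted p = 0.0222 to 0.0419), 1 of them leaving out mouse Ape1 replicate 3 (0.44). The rise in human APE1 was lost in the authors' deposited comparison (adjusted p = 0.0549). Between the lines Sc4mol differed by 0.20, which did not pass (adjusted p = 0.299). Nsdhl, its partner dehydrogenase on chromosome X, read 8.90, 8.96 and 8.96 in vector control, 8.68, 8.71 and 8.79 in human APE1 and 9.13, 9.10 and 9.11 in mouse Ape1. The groups did not overlap. Nsdhl fell by 0.22 in human APE1 (adjusted p = 0.0373) and was lower than in mouse Ape1 by 0.39 (difference −0.39, adjusted p = 0.00256), beside shifts of −0.31 and −0.47 of the median expressed gene of chromosome X. With chromosome medians subtracted the differences were 0.09 and 0.08 and did not pass (adjusted p = 0.375 and 0.433). The first call was also lost when any 1 vector control or mouse Ape1 dish, or human APE1 replicate 1 or 2, was left out.

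Hsd17b7, the ketoreductase of the same complex, read 8.04, 8.22 and 8.0 in vector control, 7.89, 7.97 and 8.17 in human APE1 and 7.56, 7.75 and 7.69 in mouse Ape1. It fell by 0.42 in mouse Ape1 (SE 0.096, adjusted p = 0.0219). The call was lost without vector control replicate 2 and without mouse Ape1 replicate 1 or 3. Ebp, an isomerase that shifts the sterol's double bond and also lies on chromosome X, read 9.02, 8.97 and 9.08 in vector control, 8.87, 8.81 and 8.83 in human APE1 and 8.73, 8.84 and 8.57 in mouse Ape1. It fell by 0.31 in mouse Ape1 (adjusted p = 0.0294), where the median of chromosome X was higher by 0.16. This call was lost without any of the vector control dishes and without mouse Ape1 replicate 1 or 3 (adjusted p up to 0.105 over all alternatives).

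The enzymes just before cholesterol parted in mouse Ape1. Sc5d, the desaturase that makes the substrate of Dhcr7, read 9.11, 8.98 and 9.0 in vector control, 9.06, 8.93 and 9.03 in human APE1 and 9.66, 9.59 and 9.48 in mouse Ape1. The mouse Ape1 dishes lay above all others. Sc5d rose 1.46-fold in mouse Ape1 (0.54, SE 0.071, adjusted p = 0.00160) and was lower in human APE1 than in mouse Ape1 (−0.57, adjusted p = 0.00145). It differed by −0.02 between human APE1 and vector control. Chromosome 9 shifted by 0.07 in mouse Ape1 and by −0.23 between the lines. Beyond these shifts the differences of Sc5d were 0.48 and −0.33, which still passed (adjusted p = 0.0036 and 0.0181). Dhcr7, the reductase of the last step, read 8.46, 8.40 and 8.28 in vector control, 8.04, 8.09 and 8.14 in human APE1 and 7.84, 7.85 and 7.88 in mouse Ape1. The groups did not overlap, with vector control highest and mouse Ape1 lowest. Dhcr7 fell by 0.29 in human APE1 (adjusted p = 0.0234) and by 0.52 in mouse Ape1 (adjusted p = 0.00127), beside a shift of −0.19 of chromosome 7 in each. Beyond that shift the differences were −0.10, which did not pass, and −0.33. The fall in human APE1 was lost without vector control replicate 1 or 2 and without human APE1 replicate 1 or 2. In the authors' deposited comparison neither fall of Dhcr7 passed (adjusted p = 0.333 and 0.0737). Tm7sf2, a sterol reductase, ranged from 6.69 to 7.10 and passed in no comparison.

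**Figure D2:**
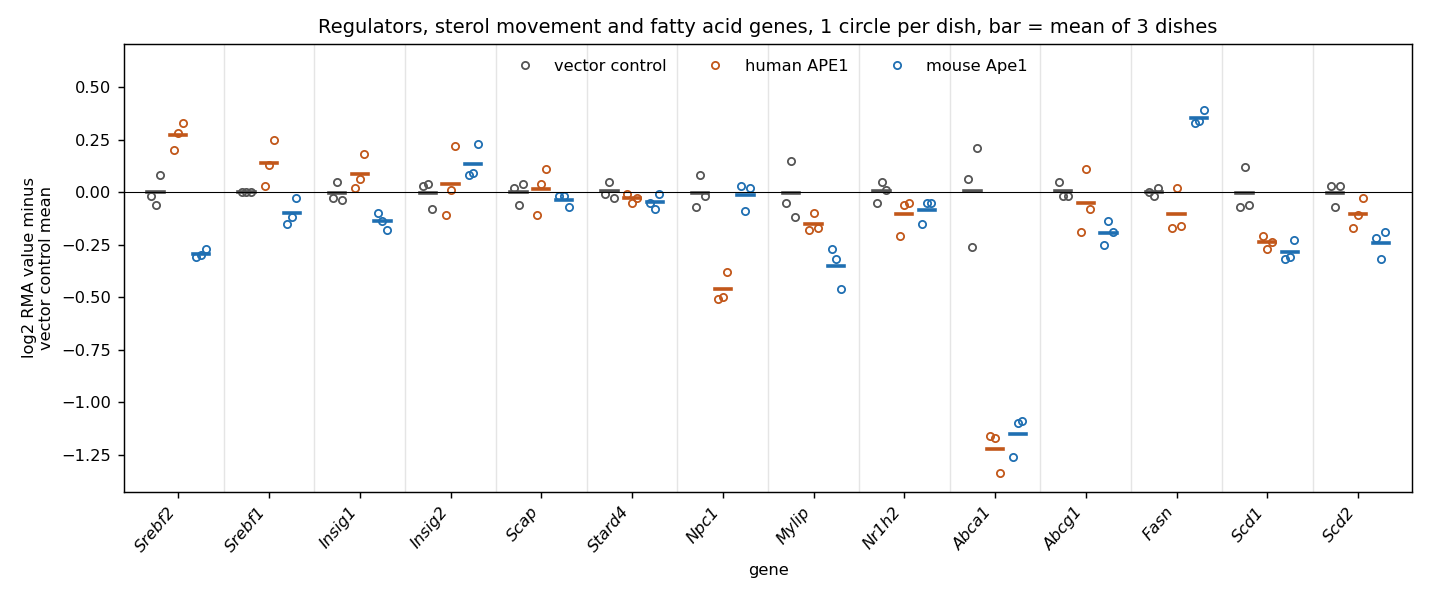
Regulators, genes of sterol movement, uptake control and efflux, and fatty acid enzymes, drawn as for the enzymes: 1 circle per dish on the log2 scale, vector control mean subtracted. Abca1 lies more than 1 log2 unit below vector control in all 6 dishes of the APE1 lines, and Srebf2 lies above vector control in human APE1 and below it in mouse Ape1.

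Among the regulators, Srebf2, the gene of the SREBP factor best known for cholesterol genes, followed the order of Hmgcs1. It read 9.98, 9.94 and 10.08 in vector control, 10.20, 10.28 and 10.33 in human APE1 and 9.69, 9.70 and 9.73 in mouse Ape1. The 3 groups did not overlap. Srebf2 rose by 0.27 in human APE1 (SE 0.061, adjusted p = 0.0257), fell by 0.29 in mouse Ape1 (adjusted p = 0.0150) and stood 1.48-fold higher in human APE1 than in mouse Ape1 (0.56, adjusted p = 0.000754). The median of chromosome 15 shifted by −0.08, −0.22 and 0.14, and beyond it the differences were 0.35, −0.07 and 0.42, of which the second did not pass (adjusted p = 0.421). The rise was lost without vector control replicate 1 or 2 and without human APE1 replicate 2 or 3, and the fall without mouse Ape1 replicate 1.

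No other regulator passed in any comparison in the limma fit used throughout. Srebf1, whose product drives fatty acid genes, read 7.73 in each vector control dish, 7.76, 7.86 and 7.98 in human APE1 and 7.58, 7.61 and 7.70 in mouse Ape1, so that the groups did not overlap. Its differences were 0.14 (adjusted p = 0.280), −0.10 (adjusted p = 0.421) and 0.24 between the lines (adjusted p = 0.0681). The last of these passed under some alternatives (adjusted p = 0.026 to 0.0453), among them quantile normalization. Insig1, an SREBP target that closes the feedback loop, read 9.07, 9.15 and 9.06 in vector control, 9.12, 9.16 and 9.28 in human APE1 and 9.0, 8.96 and 8.92 in mouse Ape1. Its difference between the lines was 0.22 (adjusted p = 0.0580), while the median of chromosome 5 differed by −0.23, and beyond that median it was 0.45 (adjusted p = 0.00248). This difference also passed under other alternatives of scaling, spread or clusters (adjusted p = 0.0198 to 0.028). Insig2 ranged from 7.99 to 8.33 and Scap from 9.07 to 9.29. A second, dimmer cluster of Scap, with group means of 6.14 to 6.29, did not pass either.

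Sterol movement and efflux held the largest change of the 32 genes. Abca1, the pump that hands cholesterol to apolipoprotein particles and a target of liver X receptors, read 6.74, 6.42 and 6.89 in vector control, 5.52, 5.51 and 5.34 in human APE1 and 5.42, 5.58 and 5.59 in mouse Ape1. Both lines lay below vector control with a wide gap, and overlapped with each other. Abca1 fell 2.34-fold in human APE1 (−1.22, SE 0.12, adjusted p = 0.000565) and 2.23-fold in mouse Ape1 (−1.15, SE 0.12, adjusted p = 0.000563), and the lines differed by −0.07 (adjusted p = 0.800). For Abca1 the authors' deposited table lists vector control at 2.75 times human APE1 (p = 2.17e-07) and 2.44 times mouse Ape1 (p = 4.55e-07). In both lines its means, 5.46 and 5.53, lay below the array medians, where RMA compresses differences, so the size of the fall is uncertain. Macrophages express Abca1 too, and of 7 macrophage markers measured only Cd68 and Cd14 lay above the array median, with a mean level over the 7 of 5.33 to 5.51 in vector control, 5.29 to 5.31 in human APE1 and 5.14 to 5.26 in mouse Ape1. Cd14 fell too (−0.66, adjusted p = 0.0105, and −0.94, adjusted p = 0.00157), while Ptprc differed by −0.10 and −0.17 and did not pass. Pparg, the adipocyte factor known to act upstream of Abca1 in macrophages, fell by 0.40 (adjusted p = 0.0405) and 0.81 (adjusted p = 0.00138). Of the other adipocyte markers Plin4 rose in both lines (0.23, adjusted p = 0.048, and 0.28, adjusted p = 0.0188) and Adipoq, Lep, Plin1, Cidec, Fabp4 and Cfd did not pass. The part of these markers in the result was not tested.

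Abcg1, Nr1h2 and Mylip are also tied to liver X receptors, and of these only Mylip passed, in 1 comparison. Abcg1, a second efflux pump, ranged from 5.56 to 5.92 and Nr1h2, the widely expressed liver X receptor, from 8.93 to 9.19, and neither passed in any comparison. Mylip read 7.20, 7.40 and 7.13 in vector control, 7.07, 7.15 and 7.08 in human APE1 and 6.98, 6.93 and 6.79 in mouse Ape1. It fell by 0.35 in mouse Ape1 (SE 0.086, adjusted p = 0.0284), a call lost without vector control replicate 1 or 2 and without mouse Ape1 replicate 2 or 3. The difference beyond the shift of chromosome 13 was −0.20.

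Npc1, which passes cholesterol out of the lysosome, read 9.04, 9.19 and 9.09 in vector control, 8.60, 8.61 and 8.73 in human APE1 and 9.14, 9.02 and 9.13 in mouse Ape1. Human APE1 lay below both other groups, which overlapped. Npc1 fell by 0.46 in human APE1 (SE 0.068, adjusted p = 0.00383), was lower there than in mouse Ape1 (−0.45, adjusted p = 0.00337) and differed by −0.01 between mouse Ape1 and vector control. Chromosome 18 shifted by −0.21 and −0.19 in these comparisons, and the differences beyond it, −0.25 and −0.27, still passed (adjusted p = 0.0355 and 0.0238). A second cluster of Npc1, with group means of 5.52 to 5.62 near the array medians, did not pass in any comparison (adjusted p = 0.737 to 0.952). The mean of both clusters did not pass in human APE1 against vector control. In the authors' deposited comparison the fall of Npc1 in human APE1 was lost as well (adjusted p = 0.0644). Stard4, a carrier of sterol between membranes and also on chromosome 18, stayed between 7.97 and 8.10 in all 9 dishes and did not pass.

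The 3 fatty acid enzymes passed in mouse Ape1 against vector control, while in human APE1 none of them passed in the limma fit used throughout. Fasn, fatty acid synthase, read 11.39, 11.37 and 11.41 in vector control, 11.22, 11.41 and 11.23 in human APE1 and 11.72, 11.73 and 11.78 in mouse Ape1. It rose by 0.35 in mouse Ape1 (SE 0.066, adjusted p = 0.00903) and was lower in human APE1 than in mouse Ape1 by 0.46 (difference −0.46, adjusted p = 0.00292). The desaturases went down: Scd1 read 9.81, 10.00 and 9.82 in vector control, 9.67, 9.61 and 9.64 in human APE1 and 9.56, 9.57 and 9.65 in mouse Ape1. It fell by 0.28 in mouse Ape1 (adjusted p = 0.0259), and the difference in human APE1, −0.24, did not pass (adjusted p = 0.0603), though it did under 5 alternatives of scaling, spread or clusters tested (adjusted p = 0.0222 to 0.0464). The fall was lost without vector control replicate 2 and without mouse Ape1 replicate 1 or 2. Scd2 read 11.84, 11.74 and 11.84 in vector control, 11.64, 11.70 and 11.78 in human APE1 and 11.59, 11.49 and 11.62 in mouse Ape1. Its fall of 0.24 in mouse Ape1 (adjusted p = 0.0427) was lost when any 1 dish other than human APE1 replicate 3 was left out. Scd1 and Scd2 are close relatives, and how far their probes tell them apart was not tested. Between the lines both desaturases differed by 0.04 and 0.14 and did not pass.

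**Figure D3:**
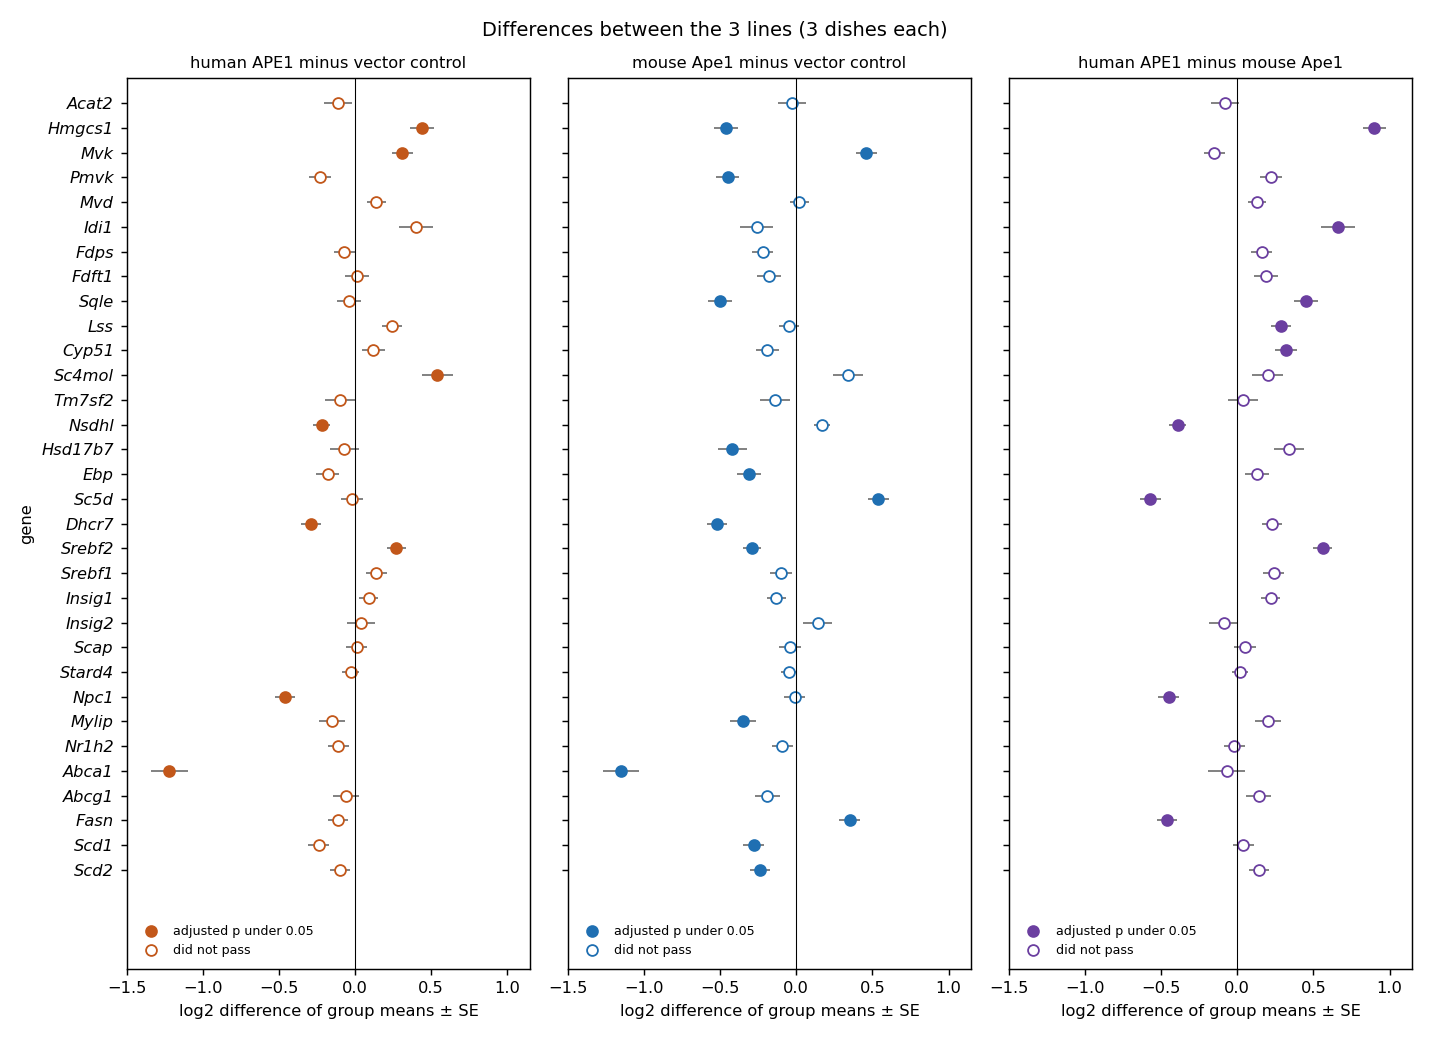
The 32 genes in the 3 comparisons: circles are differences between group means (log2) and bars their SE. Filled circles passed limma's test at an adjusted p under 0.05 (8, 14 and 10 genes from left to right) and open circles did not.

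In human APE1 against vector control 4 of the 32 genes rose (Hmgcs1, Mvk, Sc4mol and Srebf2) and 4 fell (Nsdhl, Dhcr7, Npc1 and Abca1). This is 25% of them, against 15.7% of all genes and 26.8% of expressed genes, a share near that of expressed genes. By direction 12.5% rose and 12.5% fell, against 11.4% and 15.4% of expressed genes and 6.58% and 9.13% of all genes. The median difference was −0.05, beside 0.00 for all genes. Values did not overlap between the groups in 15 of 32 genes (46.9%), against 50.8% of expressed genes. The count of 8 became 4 when only these 2 groups were fitted, 4 without vector control replicate 1, 5 without vector control replicate 2 and 4 without human APE1 replicate 2, and Hmgcs1 and Abca1 passed under all alternatives.

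In mouse Ape1 against vector control 3 genes rose (Mvk, Sc5d and Fasn) and 11 fell (Hmgcs1, Pmvk, Sqle, Hsd17b7, Ebp, Dhcr7, Srebf2, Mylip, Abca1, Scd1 and Scd2). This is 43.8%, against 19.9% of all genes and 33.1% of expressed genes. Falls made up 34.4%, against 16.7% of expressed genes and 10.2% of all genes, and rises 9.38%, against 16.5% and 9.75%. Among the 18 synthesis enzymes 2 rose and 6 fell, with a median of −0.19, while the median of all genes was −0.03. Values did not overlap in 24 of 32 genes (75.0%), against 58.1% of expressed genes. Without mouse Ape1 replicate 1 the count of 14 became 9, and 6 genes passed under all alternatives: Hmgcs1, Mvk, Pmvk, Sc5d, Abca1 and Fasn.

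Between the lines 6 genes were higher in human APE1 (Hmgcs1, Idi1, Sqle, Lss, Cyp51 and Srebf2) and 4 were lower (Nsdhl, Sc5d, Npc1 and Fasn). This is 31.2%, against 16.6% of all genes and 28.2% of expressed genes. The 6 higher genes are 18.8%, against 12.2% of expressed genes and 7.17% of all genes, and the 4 lower ones 12.5%, against 16.0% and 9.39%. The median difference was 0.14 over the 32 genes and 0.19 over the 18 enzymes, beside 0.03 for all genes. Values did not overlap in 18 of 32 genes (56.2%), against 53.0% of expressed genes. Both comparisons with vector control share its 3 dishes, and in them 2 genes passed in opposite directions (Hmgcs1 and Srebf2), as did 1.32% of all genes and 2.35% of expressed genes. Mvk rose in both, Dhcr7 and Abca1 fell in both.

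The dishes of a group were not alike. With the vector control mean of each gene subtracted, the mean over the 18 enzymes was 0.02, 0.02 and 0.11 in human APE1 replicates 1, 2 and 3, and −0.13, −0.08 and −0.16 in mouse Ape1. In human APE1 replicate 3 the enzyme read highest of its group for 11 of 18 genes, in replicate 1 for 5 and in replicate 2 for 2. That dish had the lowest array median of its group (5.65 against 5.74 in both others) and the lowest weight of the 9 arrays in limma's array weights (0.621). In vector control the counts were 6, 5 and 7, and in mouse Ape1 7, 7 and 4.

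**Figure D4:**
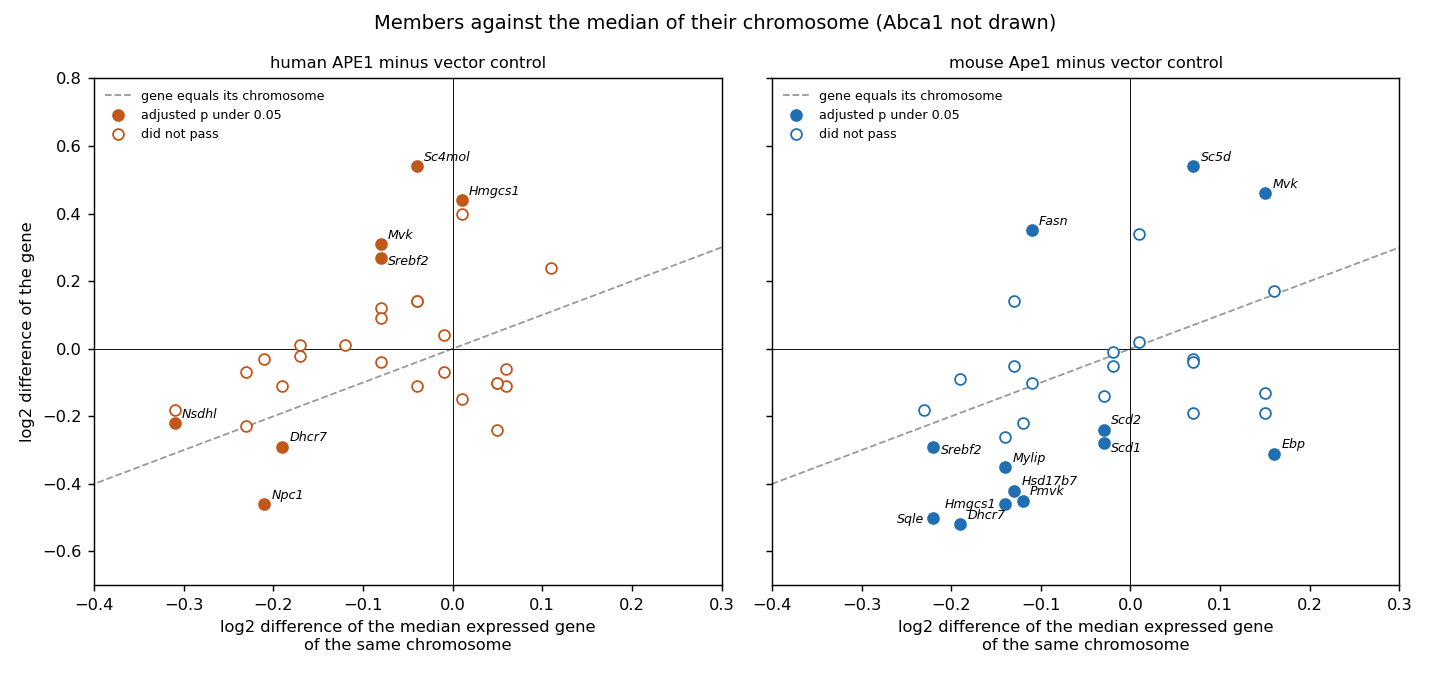
The difference of each gene from vector control (vertical axis, log2) against that of the median expressed gene of its chromosome (horizontal axis, log2), for human APE1 on the left and mouse Ape1 on the right. The dashed line marks genes that shift as much as their chromosome, Abca1 is left out for scale, and Nsdhl, Sc4mol, Hmgcs1, Sc5d, Fasn and Ebp are among the labelled genes that passed.

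The genes lie on 16 of the 20 chromosomes measured, so that the shifts between lines touch them unevenly. Subtracting the chromosome medians left 7, 12 and 12 genes past the threshold in the 3 comparisons. The shares of all or expressed genes that passed with this scaling are not given here. These counts and their balance therefore stand without a background. In mouse Ape1 against vector control the fall of Srebf2, Hsd17b7, Mylip and Scd2 no longer passed, while Cyp51 (−0.35, adjusted p = 0.0151) and Insig1 (−0.29, adjusted p = 0.0171) did. Between the lines Pmvk (0.33), Cyp51 (0.55), Ebp (0.59), Insig1 (0.45) and Scap (0.28) were higher in human APE1 with this scaling, beside Hmgcs1, Idi1, Sqle and Srebf2, and Lss and Nsdhl no longer passed. The balance between the lines thus moved from 6 higher and 4 lower to 9 higher and 3 lower, a share of higher calls of 60.0% against 75.0%.

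**Figure D5:**
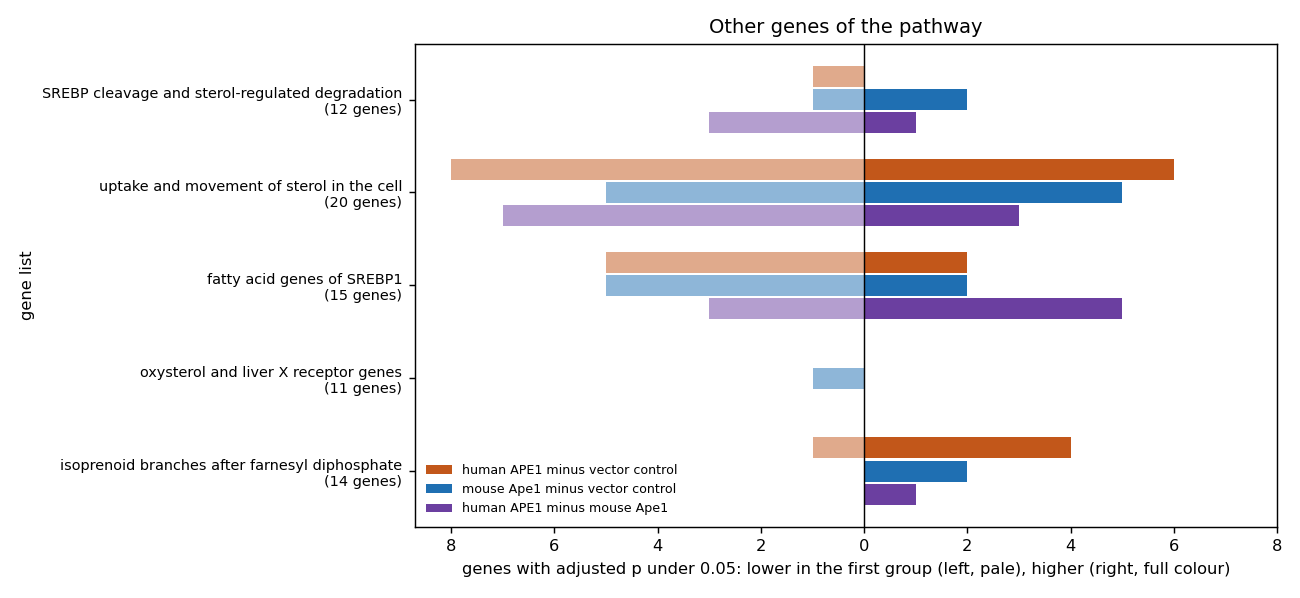
Other genes of the pathway in 5 lists: bars to the right count genes that were higher in the first-named group of a comparison and bars to the left, in pale colour, genes that were lower, at an adjusted p under 0.05. The list of uptake and movement of sterol holds more calls than any other of the 5 lists in each comparison, with 14, 10 and 10 of 20 genes. It is also the longest list, which favours it in such counts. By share of its genes the list of fatty acid genes holds more calls between the lines, with 8 of 15 genes.

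The rest of the pathway was followed in 5 lists of 72 further genes, all measured. In human APE1 against vector control 12 rose and 15 fell (37.5%), in mouse Ape1 11 rose and 12 fell (31.9%), and between the lines 10 were higher and 13 lower in human APE1 (31.9%), beside 26.8%, 33.1% and 28.2% of expressed genes and 15.7%, 19.9% and 16.6% of all genes. Some listed genes, such as Cyp7b1 and Cyp27a1, lay below the level that defines expressed genes. Of 20 genes of sterol uptake and movement, 6 rose and 8 fell in human APE1 and 5 rose and 5 fell in mouse Ape1, with medians of −0.08 and 0.05. Lrp1, a receptor for lipoproteins and many other ligands, rose in both lines, by 0.56 (adjusted p = 0.00491) and by 0.97 (adjusted p = 0.000269). Vldlr, a lipoprotein receptor, moved in opposite directions: group means were 7.12 in vector control, 6.32 in human APE1 and 7.72 in mouse Ape1. The differences were −0.80 (adjusted p = 0.000287), 0.60 (adjusted p = 0.000907) and −1.40 between the lines (adjusted p = 1.91e-05), where chromosome 19 shifted by 0.05, −0.03 and 0.08.

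Npc2, the partner of Npc1 in the lysosome, fell in human APE1 as well, with group means of 10.36 in vector control, 9.39 in human APE1 and 10.47 in mouse Ape1. Its difference was −0.97 (SE 0.072, adjusted p = 0.000141) in human APE1 against vector control and −1.08 between the lines (adjusted p = 6.83e-05). It did not pass in mouse Ape1 (0.11, adjusted p = 0.373). Chromosome 12, where Npc2 lies, shifted by 0.07, 0.40 and −0.33 in human APE1, mouse Ape1 and between the lines. Stard5, a sterol-binding relative of Stard4, fell in both lines (−0.70, adjusted p = 0.000219, and −0.89, adjusted p = 4.87e-05), and Tmem97, a sterol-regulated protein known to bind Npc1, fell in both as well (−0.57, adjusted p = 0.00244, and −0.53, adjusted p = 0.0026). Gramd1c and Gramd1b, of the family that carries sterol from the plasma membrane, rose in both lines. Gramd1c rose by 0.73 (adjusted p = 0.00517) in human APE1 and 0.47 (adjusted p = 0.0261) in mouse Ape1, and Gramd1b by 0.23 (adjusted p = 0.0409) and 0.70 (adjusted p = 0.000204). Between the lines Osbpl5, of the oxysterol-binding family, was lower in human APE1 (−0.73, adjusted p = 0.00401), and Scarb2, a lysosomal membrane protein, was higher (0.59, adjusted p = 0.000857).

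Of 15 fatty acid genes under SREBP1, 2 rose and 5 fell in each line against vector control (medians −0.13 and −0.12), 46.7% of the list in each. For this list and the 3 that follow, the shares called over all genes were 15.7% in human APE1 and 19.9% in mouse Ape1, and over expressed genes 26.8% and 33.1%. Pcyt1a, which makes the head group donor of phosphatidylcholine, fell by 0.24 in human APE1 (adjusted p = 0.0365) and by 0.50 in mouse Ape1 (adjusted p = 0.00119). Acsl3, an acyl-CoA synthetase, was higher in human APE1 than in mouse Ape1 by 0.56 (adjusted p = 0.00167), as was Lpin1, a phosphatidate phosphatase, by 0.39 (adjusted p = 0.00617). Of 12 genes of SREBP cleavage and sterol-regulated degradation, 0 rose and 1 fell in human APE1 and 2 rose and 1 fell in mouse Ape1. The one that fell in human APE1 was Mbtps2, the protease that makes the second cut of SREBP, named after its value was seen: it differed by −0.41 (adjusted p = 0.0131), by 0.28 in mouse Ape1 (adjusted p = 0.0484) and by −0.69 between the lines (adjusted p = 0.000954), beside shifts of its chromosome X by −0.31, 0.16 and −0.47. Of 11 oxysterol and liver X receptor genes, none was among the genes that passed in human APE1 and 1 fell in mouse Ape1. Of 14 genes on the isoprenoid branches after farnesyl diphosphate, 4 rose and 1 fell in human APE1 and 2 rose and 0 fell in mouse Ape1, with Pdss2, a subunit of the synthase that makes the ubiquinone side chain, higher by 0.41 in human APE1 (adjusted p = 0.0119) and by 0.33 in mouse Ape1 (adjusted p = 0.0234).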

How the data were processed

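RNA of 9 dishes of mouse embryonic fibroblasts was measured on Affymetrix arrays, 3 dishes for each of 3 lines. The authors deposited log2 values made by RMA in Expression Console at the core exon level, per the labels. A second table holds the authors' group means, the ratio for each pair of groups and its unadjusted p-value, made with Partek per the submitters' processing notes. No label or header used here names the genome build. The 32 genes and the wider lists were chosen with earlier results of these data known. From the deposited log2 values, group means were fitted over all 9 arrays with limma 3.58.1 (lmFit and eBayes, R 4.3.3, 6 residual and 2.07 prior degrees of freedom), with Benjamini-Hochberg adjustment over 41345 transcript clusters in each comparison and a threshold of 0.05. Every one of the 32 genes is named, while of the wider lists the text gives, per comparison, the 3 strongest calls in each direction by log2 difference. Chromosomes were read from the gene annotation of the deposited table where it gave one, otherwise from RefSeq by symbol, and covered 24125 symbols. Arrays of a group correlated at 0.990 to 0.993 and arrays of different groups at 0.977 to 0.987. Nothing in the labels says that dishes were separate cultures of independent origin, and the number of arrays limits the precision. The 19 alternatives covered the samples fitted, each dish left out, scaling, the spread, dim clusters, the choice of cluster and the authors' own comparison.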

Additional observations from a re-analysis of the deposited data

Results flagged for a closer look

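Of the genes that passed in both lines against vector control, Hmgcs1 and Srebf2 did so in opposite directions, and for both the difference between the lines passed as well. Hmgcs1 was higher in human APE1 than in mouse Ape1 by 0.90 (limma adjusted p = 0.000219), with all 3 human APE1 dishes above and all 3 mouse Ape1 dishes below the vector control dishes. Srebf2 was higher by 0.56 (adjusted p = 0.000754) with the same order of dishes. The calls of Hmgcs1 held under all 19 alternatives in each comparison. For Srebf2 the difference between the lines did too, but its rise in human APE1 was lost under 6 of them and its fall in mouse Ape1 under 3, with the fall at −0.07 (adjusted p = 0.421) once chromosome medians were subtracted.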

How the results depend on the processing

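Under the 19 alternatives, 2 of 8 calls remained throughout in human APE1 against vector control, 6 of 14 in mouse Ape1 against vector control and 6 of 10 between the lines. The count of 8 became 4 with only the 2 groups fitted and 4 in the authors' comparison, and 4 to 7 with a dish left out. The count of 14 became 8 in the authors' comparison and 9 to 14 with a dish left out. In the authors' comparison Mvk, Sc4mol, Nsdhl, Dhcr7 and Npc1 were lost in human APE1 against vector control, and Idi1 passed. In mouse Ape1 it lost Sqle, Hsd17b7, Ebp, Dhcr7, Srebf2 and Scd2, and between the lines Sqle and Lss. In the wider lists the count of 27 in human APE1 became 17 with only the 2 groups fitted, 16 with chromosome medians subtracted and 14 to 23 with a dish left out. The median difference in human APE1, −0.05, became −0.10 with array medians subtracted, 0.11 with chromosome medians subtracted, −0.02 in the authors' comparison and −0.06 to −0.03 with a dish left out. In mouse Ape1 the median, −0.16, became −0.23 with array medians subtracted, −0.20 with quantile normalization, −0.10 with chromosome medians subtracted, −0.21 in the authors' comparison and −0.17 to −0.14 with a dish left out. Between the lines the median, 0.14, became 0.18 with quantile normalization, 0.16 in the authors' comparison and 0.14 to 0.18 with a dish left out. Nsdhl turned to 0.09 in human APE1 and to 0.08 between the lines with chromosome medians subtracted. The cause of these changes was not tested.

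Dishes with the same replicate number did not deviate together more than others (r −0.07 to 0.10 over 9 pairs, against −0.12 to 0.12 over 18 pairs of different numbers). The titles do not say what the number stands for, and these correlations cannot exclude a shared day or batch. With the replicate number as a block the counts were 6, 11 and 9 for the 32 genes and 19 in each comparison for the wider lists, the medians were −0.05, −0.16 and 0.14, and the F-test called 15 genes.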
